A study of Mus musculus with 4 samples.

Results

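Collagens are the proteins whose chains wind around each other in a triple helix, and their genes were taken here as every row of the expression table with exactly 1 gene symbol made of Col, a number, a and a number. The rule found 46 rows for 44 genes of the 19938 genes with such a row, and the row with the highest mean over the arrays stood for a gene with several rows. By structure 11 of the genes encode fibrillar chains, 6 encode the type IV chains of basement membranes and 27 encode other chains. The mice were ICR mice that received ketamine, a blocker of NMDA-type glutamate receptors, by intraperitoneal injection at 30 mg/kg each day, or saline by the same route. Dosing began at an age of 1 month and lasted 3 months. RNA assigned to prefrontal cortex was read on 4 Affymetrix Mouse Gene ST arrays, 2 in each group, with 1 mouse to an array. Sex is female in the labels and male in the methods.

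For each array the title and the source field of its labels give opposite treatments. Titles name the groups here, and each difference is the mean log2 value titled ketamine minus the mean titled saline. If the source field were followed, every direction would be the reverse, and for Gabra5, the gene the paper follows, the direction by title is opposite to the paper's. The labelled tissue also did not match between the groups. By limma at an adjusted p under 0.05, 15 of 16 cerebellar markers were higher on the arrays titled ketamine, against 23.2% of all genes. Their median log2 difference was 3.15, with Gabra6 at 6.62. Of 13 forebrain markers 12 were lower, against 9.92% of all genes, with a median of -2.42 and Ddn at -6.03. Tbr1 and Neurod6, which mark cortical projection neurons, read no higher than 4.01 on the arrays titled ketamine. Both lists were written with earlier results of these data known. Array 1 titled saline stood apart from array 2 in the same markers: Gabra6 read 6.73 on it and 3.28 on array 2, and 13 of the 16 cerebellar markers read higher on array 1. Treatment and dissected tissue therefore cannot be told apart for any gene below, and in bulk tissue fewer cells of a type and less RNA per cell cannot be told apart either.

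Fibrillar collagens give tissues their tensile strength and in adult brain are made mainly by fibroblasts of the meninges and of large vessels. Type IV collagen forms the sheet-like network of the basement membrane that surrounds brain capillaries and underlies the meninges. The other chains include collagens that sit on the surface of fibrils, beaded microfibrils, open networks, chains that span the cell membrane, and the multiplexins of basement membrane zones, some of which are made by neurons.

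Of the 44 collagen genes 35 did not pass the test, and 2 chains outside the fibrillar and type IV classes stood farthest from 0. Col18a1, which encodes the basement membrane collagen whose C-terminal fragment is endostatin, was higher on the arrays titled ketamine by 1.09 on the log2 scale (standard error 0.202, adjusted p = 0.00674), a ratio of 2.13. Col25a1, a membrane-spanning collagen of neurons whose shed form is found in amyloid plaques, was lower by a log2 difference of -1.06 (standard error 0.104, adjusted p = 0.000478), a ratio of 0.481. These p-values are from limma with Benjamini-Hochberg adjustment over all 21789 rows tested, as are all adjusted p-values below. Of the 44 genes, 7 were higher, or 15.9%, against 23.2% of all genes, and 2 were lower, or 4.55%, against 9.92% of all genes (33.1% of all genes passed in either direction). Over all rows tested 23.4% were higher, 9.71% lower and 33.2% either. In 33 of the 44 the difference was above 0, as in 65.6% of all genes. The median difference of the collagens was 0.16, beside 0.13 for all genes, and 24 of the 44 lay above the median of all rows. Rescaling moved these values. After quantile normalization of the arrays the median of all genes was -0.06 and that of the collagens -0.03. Then 1 collagen gene was higher and 8 lower, beside 2616 and 3792 of all 19938 genes. With arrays centred on their medians 2 collagen genes were higher and 4 lower, beside 2876 and 3003 of all genes. Col18a1, Col25a1 and Col10a1 passed in the same direction under both scalings.

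**Figure D1:**
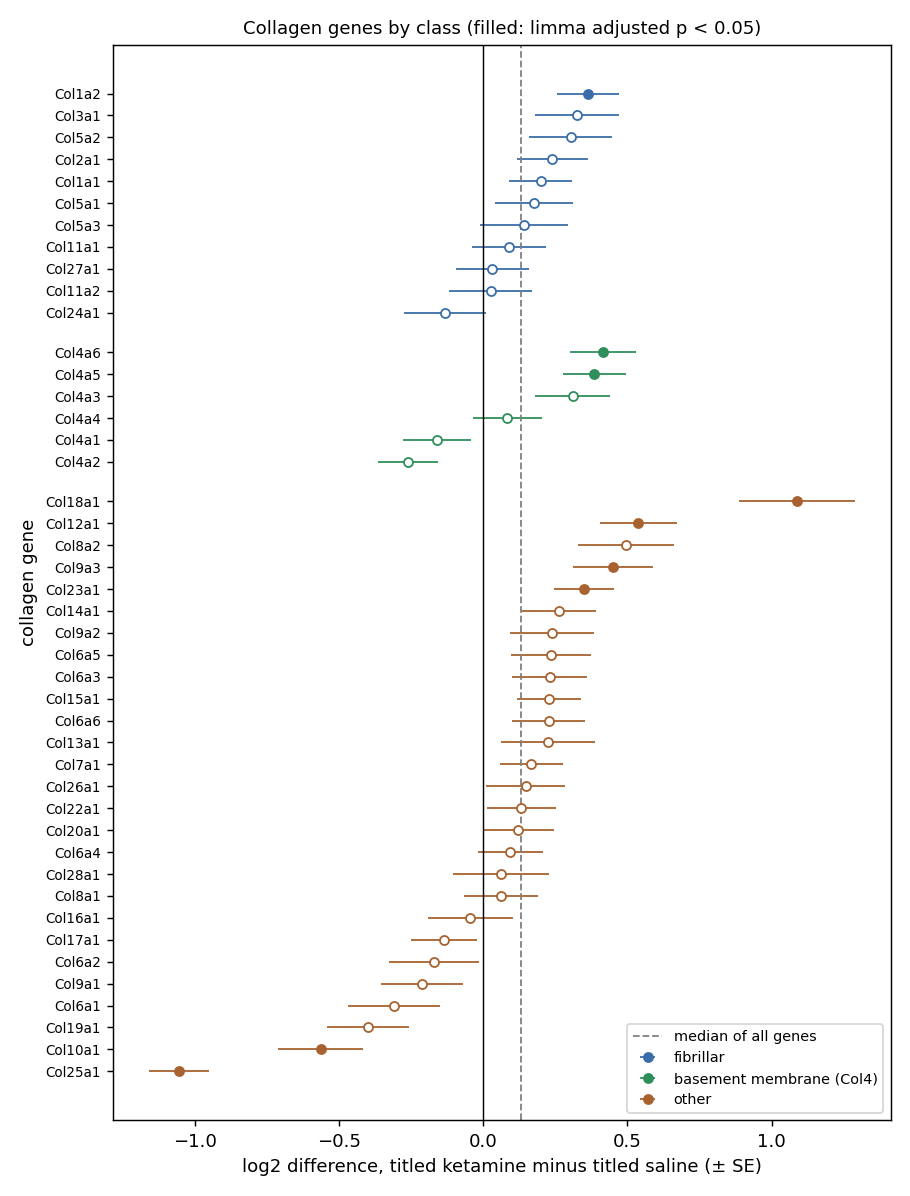
Log2 difference, titled ketamine minus titled saline (x axis, bars give the standard error from limma) for 44 collagen genes (y axis) in 3 classes. Filled points passed an adjusted p of 0.05, and the dashed line is the median of all genes at 0.13. Col18a1 lies at 1.09 and Col25a1 at -1.06, and the fibrillar chains lie between -0.13 and 0.36.

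Upstream sequence is given for a selection of the called genes from each class. Each had a RefSeq window (250 bases before to 50 after a transcription start) that reached beyond the gene's outermost annotated start. The windows of the called genes Col23a1 and Col25a1 are not printed. Only bases outside the annotated transcripts of the gene are printed, 5′ to 3′ on the gene's strand. Capitals mark CCAAT, the GC box GGGCGG and TATAAA, each searched on both strands, and no match overlaps another.
Col18a1, GRCm38.p6 chr10:77166531-77166780, minus strand: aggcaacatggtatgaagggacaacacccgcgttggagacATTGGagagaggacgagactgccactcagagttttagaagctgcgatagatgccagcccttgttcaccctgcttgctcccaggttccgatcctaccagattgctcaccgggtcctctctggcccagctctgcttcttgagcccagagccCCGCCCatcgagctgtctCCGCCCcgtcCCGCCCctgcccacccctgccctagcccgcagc
Col10a1, GRCm38.p6 chr10:34389731-34389980, plus strand: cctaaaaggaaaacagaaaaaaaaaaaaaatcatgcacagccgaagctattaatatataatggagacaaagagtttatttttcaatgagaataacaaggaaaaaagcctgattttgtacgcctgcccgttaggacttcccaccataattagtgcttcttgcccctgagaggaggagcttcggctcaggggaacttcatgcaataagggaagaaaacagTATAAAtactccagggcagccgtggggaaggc
Col1a2, GRCm38.p6 chr6:4505368-4505617, plus strand: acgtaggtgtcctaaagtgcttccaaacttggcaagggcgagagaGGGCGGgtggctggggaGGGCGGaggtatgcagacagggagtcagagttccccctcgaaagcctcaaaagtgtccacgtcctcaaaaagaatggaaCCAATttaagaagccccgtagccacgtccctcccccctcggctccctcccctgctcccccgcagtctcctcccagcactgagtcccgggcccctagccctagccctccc
Col4a5, GRCm38.p6 chrX:141475169-141475369, plus strand: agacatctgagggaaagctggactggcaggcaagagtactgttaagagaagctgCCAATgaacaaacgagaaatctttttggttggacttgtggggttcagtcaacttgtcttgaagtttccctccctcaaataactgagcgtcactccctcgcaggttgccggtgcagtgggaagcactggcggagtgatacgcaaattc
Col4a6, GRCm38.p6 chrX:141474096-141474326, minus strand: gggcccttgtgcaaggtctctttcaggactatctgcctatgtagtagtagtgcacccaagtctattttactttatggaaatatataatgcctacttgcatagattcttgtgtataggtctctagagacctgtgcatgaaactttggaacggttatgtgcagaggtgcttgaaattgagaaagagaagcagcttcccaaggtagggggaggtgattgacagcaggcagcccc
The Col18a1 stretch held 3 GC boxes and 1 CCAAT, and the Col1a2 stretch held 2 GC boxes and 1 CCAAT. The Col10a1 stretch, which lies within the span of the gene Nt5dc1, held 1 TATAAA. In the Col4a6 stretch none of the letters occurred, and the Col4a5 stretch held 1 CCAAT. Windows were given for 35 of the 44 genes, 38 windows in all. The GC box was in 23 of them (60.5%), against 35.7% of 32851 RefSeq windows of the same length, CCAAT in 13 (34.2%, against 37.4%) and TATAAA in 5 (13.2%, against 13.6%). These matches describe the letters only.

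Of the 11 fibrillar genes 1 was higher on the arrays titled ketamine, or 9.09%, against 23.2% of all genes, and none was lower (limma). The median difference of the class was 0.18, beside 0.13 for all genes, and 7 of the 11 lay above the median of all rows. Type I collagen, the main fibril of skin, bone and meninges, is built of Col1a1 and Col1a2 chains. Col1a2 read 6.61 and 6.71 on the arrays titled saline and 7.01 and 7.04 on those titled ketamine, with a difference of 0.36 (adjusted p = 0.038). The groups did not overlap, and both arrays titled ketamine were above both titled saline, as they were for 48.4% of all genes. Its partner Col1a1 read 6.36 and 6.49 against 6.63 and 6.62, a difference of 0.20 (adjusted p = 0.199). Col1a2 did not pass after quantile normalization (0.21, adjusted p = 0.179) or after centring (0.23, adjusted p = 0.166).
Col3a1, the type III chain of pliable tissues and the ligand of the receptor Adgrg1 in developing cortex, read 5.19 and 5.58 on the arrays titled saline and 5.67 and 5.75 on those titled ketamine. Col5a2, its neighbour on chromosome 1 and a chain of the type V collagen that starts fibrils, read 4.39 and 4.77 against 4.89 and 4.87. Neither pair of groups overlapped, with differences of 0.32 (adjusted p = 0.130) and 0.30 (adjusted p = 0.147). In both genes array 1 titled saline was the low array, by 0.38 below array 2. The other type V chains overlapped between the groups, with Col5a1 at 5.40 and 5.71 against 5.78 and 5.67 and Col5a3 at 5.24 and 5.65 against 5.54 and 5.64.
Col2a1, the type II chain of cartilage, read 5.84 and 6.08 against 6.23 and 6.17, a difference of 0.24 without overlap (adjusted p = 0.172). Its companions in cartilage fibrils overlapped between the groups: Col11a1 read 5.17 and 5.45 against 5.35 and 5.45. Col11a2 read 5.82 and 6.19 against 5.99 and 6.06. The minor fibrillar chain Col24a1 read 4.97 and 5.32 against 5.06 and 4.96, and was the fibrillar gene with a difference below 0, at -0.13 (adjusted p = 0.502). Col27a1, of developing cartilage, read 5.96 and 6.18 against 6.18 and 6.01. After quantile normalization Col5a1, Col5a3, Col11a1, Col11a2 and Col27a1 also lay below 0.

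The 6 type IV genes lie in head-to-head pairs, and 2 of them were higher, none lower and 4 did not pass (limma). The share higher was 33.3%, against 23.2% of all genes, and 9.92% of all genes were lower. Col4a5 and Col4a6, the pair on the X chromosome, were higher on the arrays titled ketamine. Col4a5, a chain known from the kidney filter and the cochlea, read 4.60 and 4.67 on the arrays titled saline and 4.96 and 5.08 on those titled ketamine, with a difference of 0.39 (adjusted p = 0.034). Col4a6, which joins Col4a5 in the basement membrane of smooth muscle, read 4.32 and 4.50 against 4.81 and 4.84, a difference of 0.42 (adjusted p = 0.0304). The groups overlapped in neither gene, and over all genes they did not overlap in 70.2%. The RefSeq starts of the windows printed above lie 1342 bases apart.
Col4a1 and Col4a2, the chains of nearly all basement membranes including those of brain capillaries, did not pass. Col4a1 read 5.86 and 5.97 on the arrays titled saline and 5.85 and 5.66 on those titled ketamine. Col4a2 read 6.13 and 6.12 against 5.90 and 5.83. The differences were -0.16 (adjusted p = 0.335) and -0.26 (adjusted p = 0.0964), and both arrays titled ketamine were below both titled saline for each gene. Relative to the median of all rows they were -0.29 and -0.39. After quantile normalization both passed as lower, at -0.35 (adjusted p = 0.0479) and -0.44 (adjusted p = 0.014), and after centring Col4a2 did, at -0.40 (adjusted p = 0.0273). The calls on Col4a5 and Col4a6 were lost in both scalings (0.13 and 0.14 after quantile normalization, adjusted p = 0.395 and 0.344).
The remaining pair, Col4a3 and Col4a4, encodes chains of the mature kidney filter. Col4a3 read 4.80 and 5.05 against 5.32 and 5.16, a difference of 0.31 without overlap (adjusted p = 0.107). Col4a4 read 4.97 and 5.09 against 5.21 and 5.01, with overlapping groups. Whether the pairs differ from each other was not tested.

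**Figure D2:**
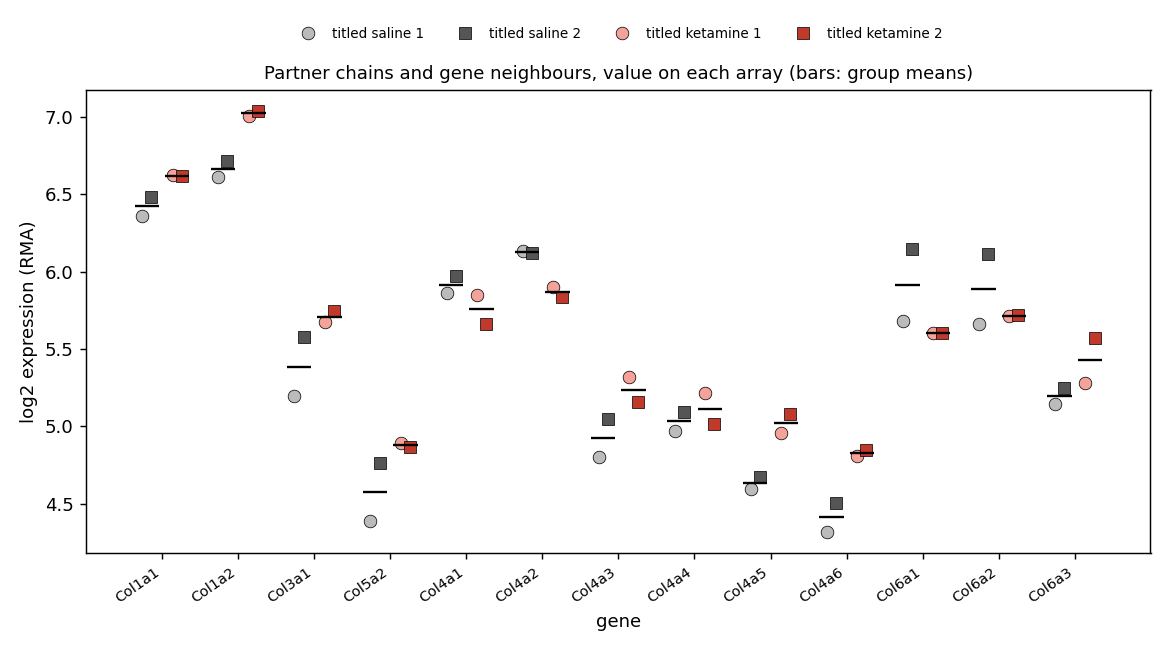
Log2 expression (y axis) of collagen chains that share a protein or a gene neighbourhood (x axis) array by array, in grey for titled saline and red for titled ketamine, with circles for array 1, squares for array 2 and bars for group means. Col4a5 and Col4a6 lie higher in red than in grey without overlap, and Col4a1 and Col4a2 lie lower. Levels of different genes are not comparable, since each is read by its own probes.

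Among the 27 other chains 4 were higher, 2 lower and 21 did not pass. These shares were 14.8% higher and 7.41% lower, against 23.2% and 9.92% of all genes. Col18a1 read 5.25 and 5.71 on the arrays titled saline and 6.80 and 6.34 on those titled ketamine. The groups did not overlap, and arrays of the same group differed by 0.46. Col15a1, the other multiplexin, read 5.48 and 5.50 against 5.80 and 5.65, a difference of 0.23 without overlap (adjusted p = 0.155). The choroid plexus, which secretes cerebrospinal fluid, was represented by 11 markers, of which 10 (90.9%) were higher and none lower. Their median difference was 0.78, with Kcne2 at 1.29 and Slc4a5 at 1.23. Of 11 endothelial markers 3 (27.3%) were higher, none lower and 8 did not pass, with a median of 0.35 and Emcn at 0.81. Of all genes 23.2% were higher and 9.92% lower. Between the arrays titled ketamine Col18a1 read lower on array 2. There 9 of 11 choroid plexus, 5 of 11 endothelial and 2 of 16 cerebellar markers read higher on array 2, beside 48.7% of all genes. Between the arrays titled saline Col18a1 read higher on array 2, as did 7 of 11, 4 of 11 and 3 of 16 of these markers and 50.5% of all genes. The cerebellar markers had a median difference between the groups of 3.15. The part of these lists in the Col18a1 difference was not tested.
Col25a1 read 6.65 and 6.69 on the arrays titled saline and 5.62 and 5.61 on those titled ketamine. Arrays of the same group differed by at most 0.04, and of the 9 called genes it was the one that kept its call whichever array titled saline was left out (adjusted p = 0.0132 and 0.0151, limma). Forebrain markers were lower on the same arrays, and their part in the Col25a1 difference was not tested. Col23a1, a membrane-spanning collagen like Col25a1, was higher. It read 6.002 and 6.07 against 6.38 and 6.38, a difference of 0.35 (adjusted p = 0.0401) that did not pass after quantile normalization (0.17, adjusted p = 0.244). The other chains of this type did not pass: Col13a1, of neuromuscular junctions, was at 0.23 and Col17a1, of skin hemidesmosomes, at -0.14.
Of 9 collagens that attach to the surface of fibrils 2 were higher, none lower and 7 did not pass (limma). The share higher was 22.2%, near the 23.2% of all genes. Col12a1, found in dense connective tissue, read 4.53 and 4.86 on the arrays titled saline and 5.24 and 5.23 on those titled ketamine, a difference of 0.54 (adjusted p = 0.0213). It did not pass after quantile normalization (0.29, adjusted p = 0.103) but did after centring (0.40, adjusted p = 0.0496). The type IX chains form 1 protein. Col9a3 read 6.27 and 6.61 against 6.85 and 6.93, a difference of 0.45 (adjusted p = 0.0448). It did not pass after quantile normalization (0.28, adjusted p = 0.153) or after centring (0.31, adjusted p = 0.117). Col9a2 read 6.14 and 6.46 against 6.65 and 6.42 with overlap, and Col9a1 read 5.24 and 5.60 against 5.24 and 5.17, with differences of 0.24 and -0.21 that did not pass. Col19a1, a fibril-associated collagen also made by some neurons, read 5.16 and 5.53 against 4.92 and 4.97, a difference of -0.40 without overlap (adjusted p = 0.0694), and it passed as lower after quantile normalization (-0.64, adjusted p = 0.00751) and after centring (-0.54, adjusted p = 0.0191). The remaining members of this family, Col14a1, Col16a1, Col20a1 and Col22a1, ranged from -0.05 to 0.26 and did not pass.
Network-forming collagens included the dimmest member. Col10a1, the type X chain of hypertrophic cartilage, read 4.16 and 4.37 on the arrays titled saline and 3.53 and 3.87 on those titled ketamine, a difference of -0.56 (adjusted p = 0.0251). It was the collagen gene that lay below the 95th percentile of 1035 olfactory receptor rows on all 4 arrays (4.20 to 4.56). These rows served as a reference for low signal, so that Col10a1 was at the level of low signal in both groups. The other 43 genes lay above that level on all 4 arrays. Col4a6, which was called higher, lay close to it on the arrays titled saline, at 4.32 and 4.50 against 4.20 and 4.43. Col8a2, of the type VIII collagen of vessel walls and cornea, read 4.92 and 5.41 against 5.66 and 5.65, a difference of 0.50 (adjusted p = 0.0569) that did not pass, and its partner Col8a1 was at 0.06.
Type VI collagen forms beaded microfibrils around cells. Col6a1 read 5.68 and 6.14 on the arrays titled saline and 5.60 and 5.60 on those titled ketamine, and Col6a2, its neighbour, read 5.66 and 6.11 against 5.71 and 5.72. The difference of Col6a1 was -0.31 (adjusted p = 0.176), or -0.52 after quantile normalization, where it passed (adjusted p = 0.0312). In both genes array 2 titled saline was the high array. The third chain, Col6a3, read 5.14 and 5.25 against 5.28 and 5.57. None of the 6 type VI genes passed, and Col6a4, Col6a5 and Col6a6 were at 0.09, 0.23 and 0.23. The second row of Col6a5 was at 0.33 and that of Col6a6 at -0.32, against the direction of the row used. Col7a1, of the anchoring fibrils of skin, Col26a1, of testis and ovary, and Col28a1, of peripheral nerve, did not pass and ranged from 0.06 to 0.17.

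**Figure D3:**
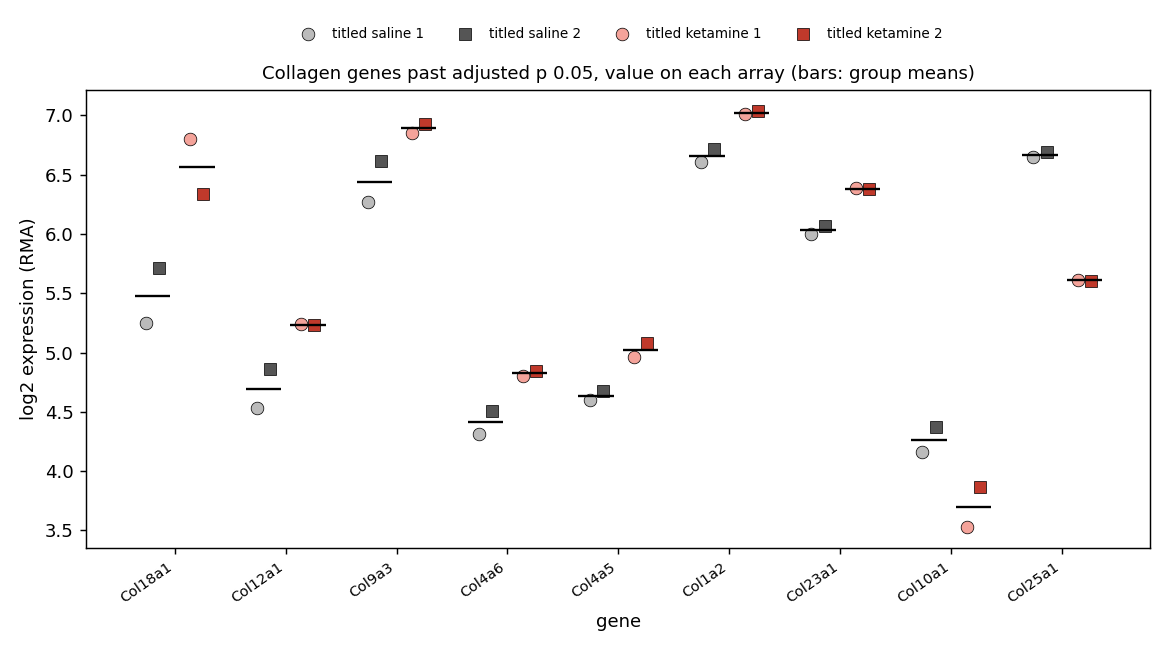
Log2 expression (y axis) of the 9 collagen genes that passed an adjusted p of 0.05 (x axis, ordered by difference) array by array, in grey for titled saline and red for titled ketamine, with bars for group means. The groups do not overlap in any of the 9. Col25a1 and Col23a1 have the closest agreement within groups, and Col18a1 differs by 0.46 between arrays of each group.

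Across the 44 genes the groups did not overlap in 27, with the arrays titled ketamine above in 19 (48.4% of all genes did so) and below in 8 (21.8% of all genes). Over all genes the groups did not overlap in 70.2%. In 6 collagen genes the arrays titled ketamine were higher by 1.3-fold or more, and in 3 lower, beside 24.0% and 10.1% of all genes (34.0% either way). All of these also had groups without overlap, as did 23.8% of all genes on the higher and 9.95% on the lower side (33.8% together).

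The 2 arrays titled saline differed from each other across the collagens. In 43 of the 44 genes array 2 titled saline read above array 1, with Col4a2 as the exception, and the median of array 2 minus array 1 was 0.26. Among all genes 50.5% read higher on array 2, with a median of 0.01, and among the 8848 genes with a mean log2 level from 4 to 7, which holds 43 of the collagens, 59.3% did, with a median of 0.06. The arrays titled ketamine showed no such lean, with array 2 above array 1 in 19 of 44 collagens and a median of -0.01. In the other lists array 2 titled saline was above array 1 in 10 of 16 receptors and degrading enzymes (median 0.13), in 9 of 16 basement membrane partners (median 0.10), in 13 of 29 biosynthesis genes (median -0.02), in 7 of 14 fibroblast markers (median 0.003), in 7 of 12 markers of pericytes and smooth muscle (median 0.04) and in 4 of 11 endothelial markers (median -0.18). Array 2 titled saline was also above array 1 in 7 of 11 choroid plexus markers (median 0.02) and in 9 of 13 forebrain markers (median 0.05). The part of these lists in the gap was not tested. In 24 of the 44 genes the gap between the arrays titled saline was larger than the difference between the groups, against 31.4% of all genes. Without array 1 titled saline the median difference of the collagens was 0.02, beside 0.107 for all genes. Without array 2 titled saline it was 0.26, beside 0.154 for all genes. Without array 1, Col18a1 was at 0.86 (adjusted p = 0.065) and Col25a1 at -1.08 (adjusted p = 0.0132), and Col6a1 and Col19a1 passed as lower, at -0.54 and -0.58. Of the cerebellar markers 13 of 16 were higher on array 1, and their part was not tested either. This pattern was noticed after the values had been seen.

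**Figure D4:**
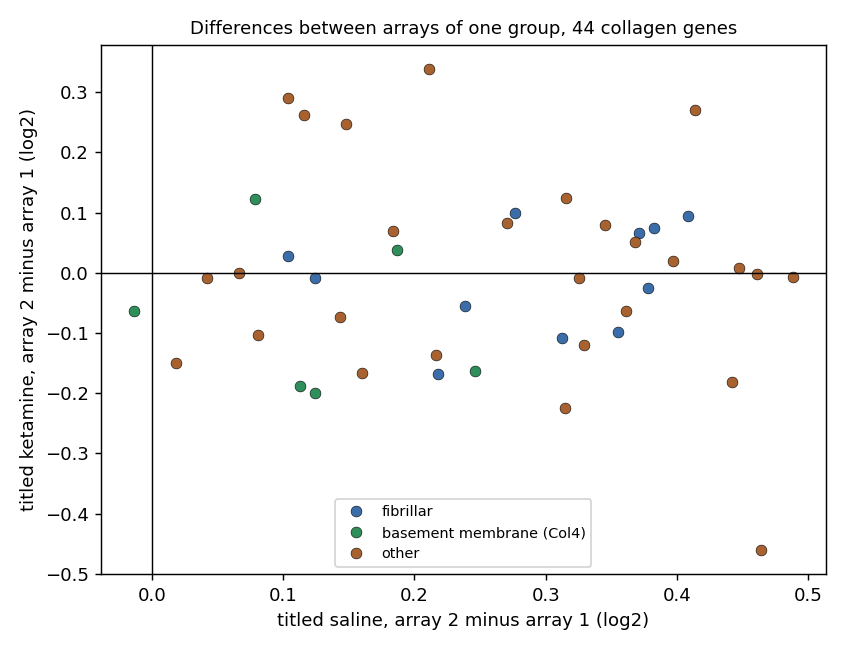
Difference between the arrays of a group, array 2 minus array 1 in log2 units, for 44 collagen genes coloured by class, with the titled saline pair on the x axis and the titled ketamine pair on the y axis. All points but Col4a2 lie right of 0, while 19 of 44 lie above 0 on the y axis.

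Of 29 genes for the folding, hydroxylation, trimming and cross-linking of collagen 7 were higher, 3 lower and 19 did not pass, with a median of 0.19. These shares of 24.1% and 10.3% were near those of all genes, 23.2% and 9.92%. Tll1, a protease of the family that removes procollagen C-propeptides, read 5.37 and 5.14 on the arrays titled saline and 8.11 and 7.79 on those titled ketamine, a difference of 2.69. Bmp1, the main such protease, was at 1.00, and Plod2, which hydroxylates the lysines used for cross-links, at 1.43. P3h3, of the prolyl 3-hydroxylase family, was at 0.64. The genes that were lower were P4ha3, P3h2 and Colgalt2, at -0.60, -0.42 and -0.46. Serpinh1, the chaperone specific to collagen, was higher by 0.44 (adjusted p = 0.0426), while Lox, the lysyl oxidase that starts cross-links, lay below the olfactory receptor level on all arrays. After quantile normalization or centring 4 of this list were higher and 3 lower. Of all 19938 genes 2616 were higher and 3792 lower after quantile normalization, and 2876 and 3003 after centring.
Of 16 receptors and degrading enzymes 3 were higher, or 18.8% against 23.2% of all genes, none was lower (limma) and 13 did not pass. The 3 were Itga1, a collagen-binding integrin chain, at 0.42, Mmp14, a membrane-bound collagenase, at 0.40, and Ddr2, a receptor kinase for fibrillar collagen, at 0.37. The receptor Adgrg1 was at -0.45 (adjusted p = 0.0638). None of the list was higher after quantile normalization, where 2 were lower.
Of 16 partners of type IV collagen in the basement membrane 5 were higher, 2 lower and 9 did not pass, with a median of 0.12 beside 0.13 for all genes. The shares were 31.2% higher and 12.5% lower, against 23.2% and 9.92% of all genes. The laminin chains Lama2 and Lamb1 read higher by 1.04 and 0.90, and Sparc, a collagen-binding glycoprotein of glia and vessels, by 0.82. Pxdn, the peroxidase that cross-links type IV collagen, was lower at -0.72: it read 6.06 and 5.88 on the arrays titled saline and 5.18 and 5.32 on those titled ketamine. Lama4, of vessel basement membranes, was lower as well, at -0.39. The remaining called partners, Nid1 and Lamb3, were higher by 0.64 and 0.44. After quantile normalization 4 partners were higher and 6 lower, beside 2616 and 3792 of all 19938 genes.
Markers of the cells that make collagen were read on the same arrays. Of 14 fibroblast markers 2 were higher and 2 lower, or 14.3% each, against 23.2% and 9.92% of all genes. The median of the list was 0.12. Lum, a proteoglycan on collagen fibrils, was at 0.83 and Pdgfra, also a marker of oligodendrocyte precursors, at -0.74. Lum read 3.92 and 3.79 on the arrays titled saline, below the olfactory receptor level. On the arrays titled ketamine it read 4.69 and 4.68, little above that level of 4.56 and 4.46. Dcn, the proteoglycan decorin of meningeal fibroblasts, read 8.13 and 7.94 against 8.15 and 8.19, a difference of 0.14 (adjusted p = 0.399). Of 12 markers of pericytes and smooth muscle none was higher and 1 (8.33%), Myh11, was lower at -0.36. Tagln was at 0.41 (limma adjusted p = 0.0946), and the median of the list was 0.11. The part of these markers in the collagen values was not tested.

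**Figure D5:**
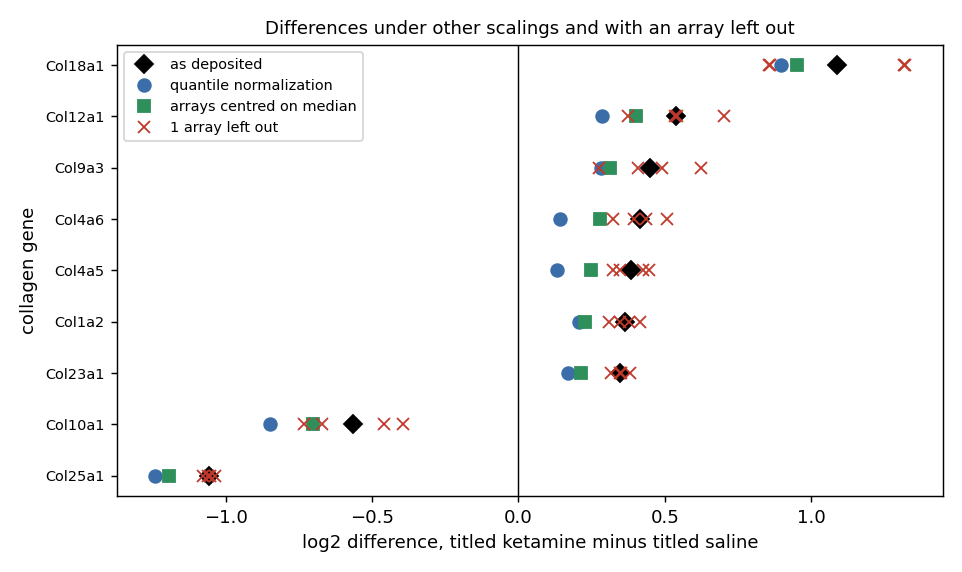
Log2 difference (x axis) of the 9 called collagen genes (y axis) as deposited, after quantile normalization, with arrays centred on their medians, and with each array left out in turn. Each point keeps the sign of its gene. Col18a1 ranges from 0.86 to 1.32 with an array left out, and Col25a1 from -1.08 to -1.04.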

How the data were processed

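RNA from 4 mice was hybridised to 4 Affymetrix arrays. The deposited values are log2 expression made by the authors by RMA (background correction, normalization between arrays, summary of each transcript cluster) in Affymetrix Expression Console. The sources used here name neither its release nor a genome build. RMA compresses low values and partly removes a shift shared by most genes. The number of arrays limits the precision, and p-values measure the spread between these arrays. Of 35556 rows, 21789 carried 1 symbol, 1621 several and 12146 none by the platform annotation. All 44 collagen symbols equal those of RefSeq (GRCm38.p6). limma (version 3.58.1, R version 4.3.3; lmFit, eBayes) was fitted to the 21789 rows with Benjamini-Hochberg adjustment, threshold 0.05, without a filter, and was tested on simulated data. With 2 arrays against 2 an exact permutation test cannot go below p = 0.333. Members and lists were chosen with earlier results of these data known. Values on each array are given for fibrillar and type IV chains, other chains past the threshold or past 1.3-fold without overlap, and partner chains. The plan was to name up to 4 called genes for each partner list and up to 2 for each marker list. The called genes P4ha3, P3h2, Colgalt2, Lama4, Nid1 and Lamb3 are named beyond that limit. Tbr1, Neurod6, Col15a1, Serpinh1, Lox, Adgrg1 and Dcn were named after their values were seen. Same-numbered arrays were not treated as pairs.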

Additional observations from a re-analysis of the deposited data

How the results depend on the processing

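The 9 called collagen genes kept their direction in each alternative that gave them a difference. Col4a5, Col4a6, Col12a1 and Col10a1 lay outside the rows at or above the median level and have no value there. After quantile normalization the counts higher and lower were 1 and 8 for all collagens, 0 and 0 for fibrillar, 0 and 2 for type IV, 1 and 6 for other chains, 4 and 3 for biosynthesis, 0 and 2 for receptors and turnover, and 4 and 6 for basement membrane partners, and the median of the collagens turned to -0.0297. After centring they were 2 and 4, 0 and 0, 0 and 1, 2 and 3, 4 and 3, 0 and 1, and 4 and 5, with a median of 0.0207. Over rows at or above the median level, which hold 13 collagen genes, they were 4 and 2 for collagens, 0 and 1 for type IV, 3 and 1 for other chains, 5 and 0 for biosynthesis, 3 and 1 for receptors, and 3 and 1 for partners. Of all 19938 genes 2616 were higher and 3792 lower after quantile normalization, and 2876 and 3003 after centring. Over rows at or above the median level 3492 of 9877 genes were higher and 1445 lower. With trend and robust options type IV had 1 higher and receptors 5 higher and 1 lower, beside 5284 and 2146 of all genes. By no overlap and 1.3-fold in place of the adjusted p, fibrillar chains had 0 higher and receptors 1 lower. Of all genes 4747 were higher and 1983 lower by that rule. With the replicate number as a block collagens had 8 higher and 3 lower, beside 5337 and 2201 of all genes, and receptors had 1 lower. Deviations of same-numbered arrays correlated at 0.034, and the numbers do not show a pairing.
With each array left out in turn, the lone array of a group is assumed to vary like the other group. The counts of called genes then moved with the array left out, for collagens as for all genes. The median of the collagens ranged from 0.0214 to 0.26, and that of all genes from 0.107 to 0.154. Without either array titled ketamine no gene of any kind passed (limma, 5473 and 5949 genes at an unadjusted p under 0.05, of them 6 and 5 collagens), so that these losses say nothing about single genes.
Uncalled genes turned in sign as follows. After quantile normalization the values were Col5a1 -0.0306, Col5a3 -0.0742, Col11a1 -0.14, Col11a2 -0.17, Col27a1 -0.15, Col4a4 -0.16, Col7a1 -0.0287, Col26a1 -0.0256, Col28a1 -0.20, Col6a3 -0.00343, Col6a4 -0.15, Col6a5 -0.000812, Col20a1 -0.0900, Col22a1 -0.0845, Col8a1 -0.14 and Col13a1 -0.000452. After centring the values were Col11a1 -0.0474, Col11a2 -0.11, Col27a1 -0.11, Col4a4 -0.0532, Col28a1 -0.0746, Col6a4 -0.0424, Col20a1 -0.0145, Col22a1 -0.00411 and Col8a1 -0.0761. With the mean of its rows Col6a6 was -0.0469. With an array left out, genes with a turn ranged as follows: Col5a3 from -0.0633 to 0.34, Col11a1 from -0.0497 to 0.23, Col11a2 from -0.16 to 0.21, Col27a1 from -0.0787 to 0.14, Col26a1 from -0.0107 to 0.30, Col28a1 from -0.15 to 0.27, Col24a1 from -0.31 to 0.0433, Col6a2 from -0.40 to 0.0515, Col16a1 from -0.24 to 0.15, Col4a4 from -0.0172 to 0.18 and Col8a1 from -0.0715 to 0.19. The causes were not tested.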
